A study of Mus musculus with 22 samples.

Results

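The mouse miRNA probes mmu-miR-425, mmu-miR-191, mmu-miR-340-5p, mmu-miR-338-3p, mmu-miR-26a and mmu-miR-26b, were followed as candidate reference miRNAs, meaning miRNAs whose level changes little between samples so that others can be measured relative to them. They were picked by name as a set of low variation over these same samples, though not each of them varied little in both materials. They are 6 of the 566 mouse miRNA probes and of the 626 probes in all. The study used miR-425 as the endogenous control of its qPCR assays and named miR-191 among its human serum references. Because low variation chose them, their low variation is given below as a description and not as a finding.

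NanoString nCounter barcode counts were used from 22 mouse samples, 15 of tissue and 7 of plasma. The tissue groups were 5 uninduced control fallopian tubes (CT), 5 doxycycline-induced fallopian tubes (FT) and 5 metastatic tumors (M). Of these M1 to M4 were peritoneal metastases and M6 an ovarian metastasis. The plasma groups were 3 control mice (CS) and 4 induced mice (TS). The study describes TS as plasma of mice that bore tumors, and the sample titles call it tumor plasma. The labels name the source of TS as serum in one field and as plasma in the other. Each miRNA was captured by its own probe after ligation of a tag to 100 ng of tissue RNA or 10 ng of plasma RNA.

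All mice belonged to a model in which Pax8-Cre, switched on by doxycycline, deletes floxed alleles in Pax8-expressing epithelium such as that of the fallopian tube. Of the Brca alleles, CT1 and CT3 carried Brca1 fl/fl, CT2 Brca1 fl/+, CT4 Brca2 fl/fl and CT5 Brca2 fl/+. Among the induced tubes FT2 was Brca1 -/-, FT4 Brca2 -/-, and FT1, FT3 and FT5 were Brca2 -/+. Among the tumors M1 and M3 were Brca2 -/-, M4 was Brca2 -/+, and M2 and M6 were Brca1 -/+. The mice that gave CT2 to CT4 also gave plasma CS2 to CS4, and those that gave FT2 to FT5 gave TS1 to TS4. A group therefore mixes genotypes, whole tubes hold stroma and muscle besides epithelium, and ages of the mice were not given in the sources used here.

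A miRNA is a short RNA that guides an Argonaute protein to messenger RNAs, mainly by pairing of its seed, bases 2 to 8 from the 5′ end, and lowers their translation and stability. A reference miRNA is chosen for even abundance and not for its function, since any real change in it is passed on, with the opposite sign, to every miRNA divided by it. miR-191 and miR-425 are processed from one host transcript and are widely used as references in blood and tissue. The miR-26 family lies in genes of the CTD small phosphatase family and is known as a restraint on cell proliferation, with the Polycomb methyltransferase Ezh2 among its targets. miR-338 lies in the gene of the kinase Aatk and is best known from neurons and oligodendrocytes, and miR-340 lies in the gene of the ubiquitin ligase Rnf130.

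The mature sequences (RefSeq, GRCm38.p6) are shown because they tell which of the probes could answer to related RNAs; capitals mark the seed.
miR-425: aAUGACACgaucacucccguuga
miR-191: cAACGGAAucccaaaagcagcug
miR-340-5p: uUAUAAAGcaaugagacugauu
miR-338-3p: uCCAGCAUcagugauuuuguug
miR-26a: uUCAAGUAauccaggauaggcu
miR-26b: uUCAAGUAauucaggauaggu

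miR-26a and miR-26b share the seed UCAAGUA, and no other probe among the 437 of 566 that matched a RefSeq mature miRNA has the seed of any of the 6. Over the 21 positions compared from the 5′ end the pair differs at 2, C11U and C21U (the base of miR-26a first), and miR-26a is 22 bases long against 21 for miR-26b. Whether a probe reads part of the other's RNA was not tested. miR-191 (chr9:108568325-108568347) and miR-425 (chr9:108568789-108568811) lie on the plus strand within Dalrd3, with 384 bases between their hairpins. miR-340-5p lies within Rnf130 (chr11:50069720-50069741, plus strand) and miR-338-3p within Aatk (chr11:120014781-120014802, minus strand). Mature miR-26a has a copy within Ctdspl (chr9:119031811-119031832, plus strand) and another within Ctdsp2 (chr10:126995543-126995564, plus strand), and miR-26b lies within Ctdsp1 (chr1:74394324-74394344, plus strand). The forward primer of the study's miR-425 qPCR assay is printed with capitals for the 19 of its 20 bases that equal positions 5 to 23 of the mature miRNA, a stretch that leaves out the start of the seed.
miR-425 primer: ACACGATCACTCCCGTTGAa

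Mouse miRNA probes summed to 70164 to 598321 counts per tissue sample and 18350 to 269005 per plasma sample. The scaling followed the methods of the study. Each sample was scaled to a geometric mean over the top 100 miRNAs for tissue or the top 30 for plasma, and these means ranged over 7.89-fold and 17.8-fold. Of the 6 miRNAs, 4 (miR-425, miR-191, miR-340-5p and miR-26b) were in the tissue set that gave the scale, which ties them to it, and 0 were in the plasma set. A count was called above background when it exceeded the mean plus 2 SD of the 8 negative hybridization controls of its sample, a level of 18.3 to 67.7 counts for tissue and 25.0 to 48.4 for plasma.

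The 6 miRNAs were not equally well measured. miR-191 and miR-340-5p were above background in all 15 tissue samples, miR-26b in 13, miR-425 in 12, miR-26a in 9 and miR-338-3p in 4. In the 7 plasma samples miR-26b was above background in 6, miR-425 in 5, miR-191 and miR-340-5p in 4 each, miR-26a in 1 and miR-338-3p in 0. Only 47 of all 566 miRNAs were above background in every tissue sample and 40 in every plasma sample, and these included 2 and 0 of the 6. The values of miR-338-3p in both materials, and of miR-26a in plasma, thus came from counts that mostly could not be told from background.

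**Figure D1:**
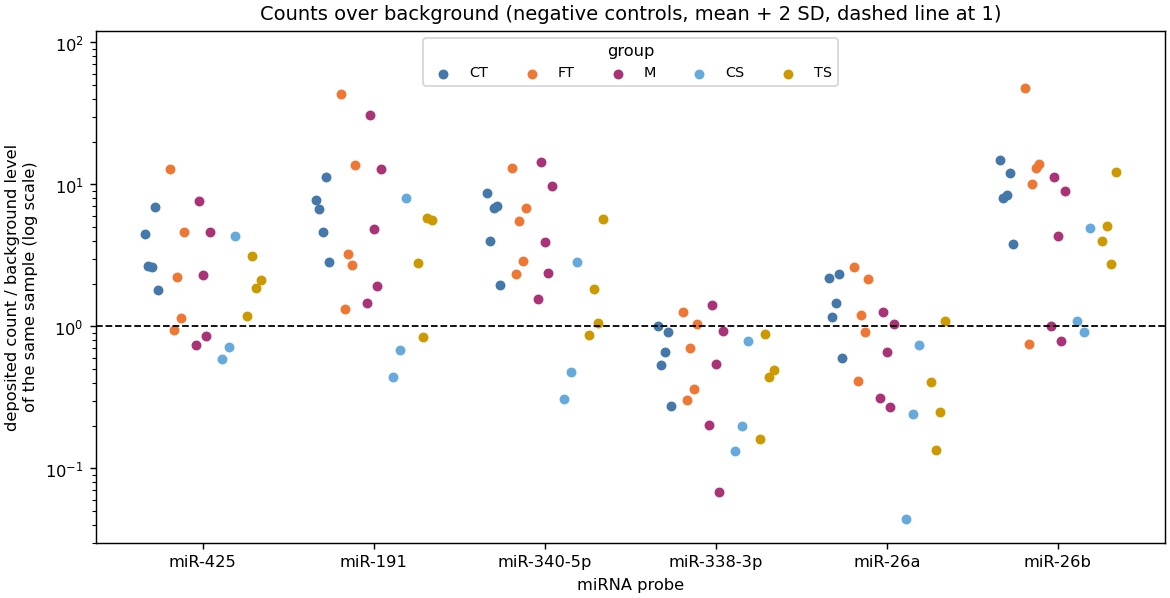
Deposited count of each reference miRNA divided by the background level of the same sample (vertical axis, log scale), 1 point per sample, coloured by group. miR-338-3p lies at or under the dashed line at 1 in most samples and in all 7 plasma samples, while miR-191 and miR-340-5p lie above it in all 15 tissue samples.

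miR-425, the control of the qPCR assays, had deposited counts of 125, 180, 95, 214 and 79 in CT1 to CT5, and of 441, 34, 54, 35 and 230 in FT1 to FT5. Its counts in M1 to M4 and M6 were 33, 150, 42, 38 and 160. After scaling these became 137, 118, 94.0, 159 and 185 in CT, 154, 80.5, 117, 69.6 and 125 in FT, and 88.3, 140, 116, 91.8 and 109 in M. The 3 groups overlapped, with 2 FT and 2 M samples under every control. The mean normalized count was 139 ± 35.3 in CT, 109 ± 34.3 in FT and 109 ± 20.7 in M (SD, n = 5 each). In plasma miR-425 had 27, 18 and 210 counts in CS2 to CS4 and 44, 93, 67 and 68 in TS1 to TS4, or 85.7, 133 and 87.1 against 60.6, 101, 126 and 34.7 after scaling. The lowest of these, TS4, lay 3.83-fold under the highest, CS3, whose value rests on 18 counts.

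miR-340-5p was the steadiest of the 6 in tissue. Its normalized counts were 267, 176, 247, 161 and 199 in CT, 156, 199, 290, 175 and 186 in FT, and 187, 266, 198, 254 and 230 in M. The highest of the 15 values was 1.86-fold the lowest, and the groups overlapped throughout. In plasma it measured 44.5, 88.7 and 57.2 in CS and 44.1, 58.7, 71.4 and 94.4 in TS, with only 12 to 14 counts behind 2 of the CS values.

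miR-191, the locus neighbour of miR-425, varied more. Its normalized counts were 238, 299, 167, 259 and 288 in CT, 517, 114, 169, 165 and 372 in FT, and 174, 568, 242, 205 and 300.3 in M. The controls stayed within a narrow range, whereas FT1, FT5 and M2 stood above the other induced samples. Plasma values were 63.5, 126 and 162 in CS and 142, 27.2, 391 and 92.8 in TS, a 14.4-fold range within 7 samples that was set by TS2 and TS3.

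miR-26b had the highest mean count of the 6 in both materials, although counts of different probes are not levels on 1 scale. It measured 452, 356, 304, 278 and 389 in CT, 568, 64.0, 529, 795 and 384 in FT, and 120, 208, 218, 84.6 and 212 in M. All 5 M samples were under all 5 controls, and FT2, at 27 counts, stood far under the other FT samples. In plasma it was the steadiest of the 6, at 159, 170 and 99.5 in CS and 203, 163, 188 and 200 in TS, and its highest value was 2.04-fold its lowest.

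miR-26a measured 66.7, 51.8, 52.5, 53.6 and 60.9 in CT, 31.4, 35.5, 62.7, 55.7 and 58.9 in FT, and 37.5, 23.3, 33.1, 29.0 and 24.6 in M. Again all 5 M samples were under all 5 controls, but only 2 of these M counts were above background. miR-338-3p stayed between 7.25 and 36.7 in tissue, and at 3 counts M4 gave the lowest value. Both were at 38 counts or fewer in every plasma sample. The opposite arms on the panel, miR-340-3p and miR-338-5p, were above background in 5 and 2 of the 15 tissue samples and in 0 of the 7 plasma samples each.

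**Figure D2:**
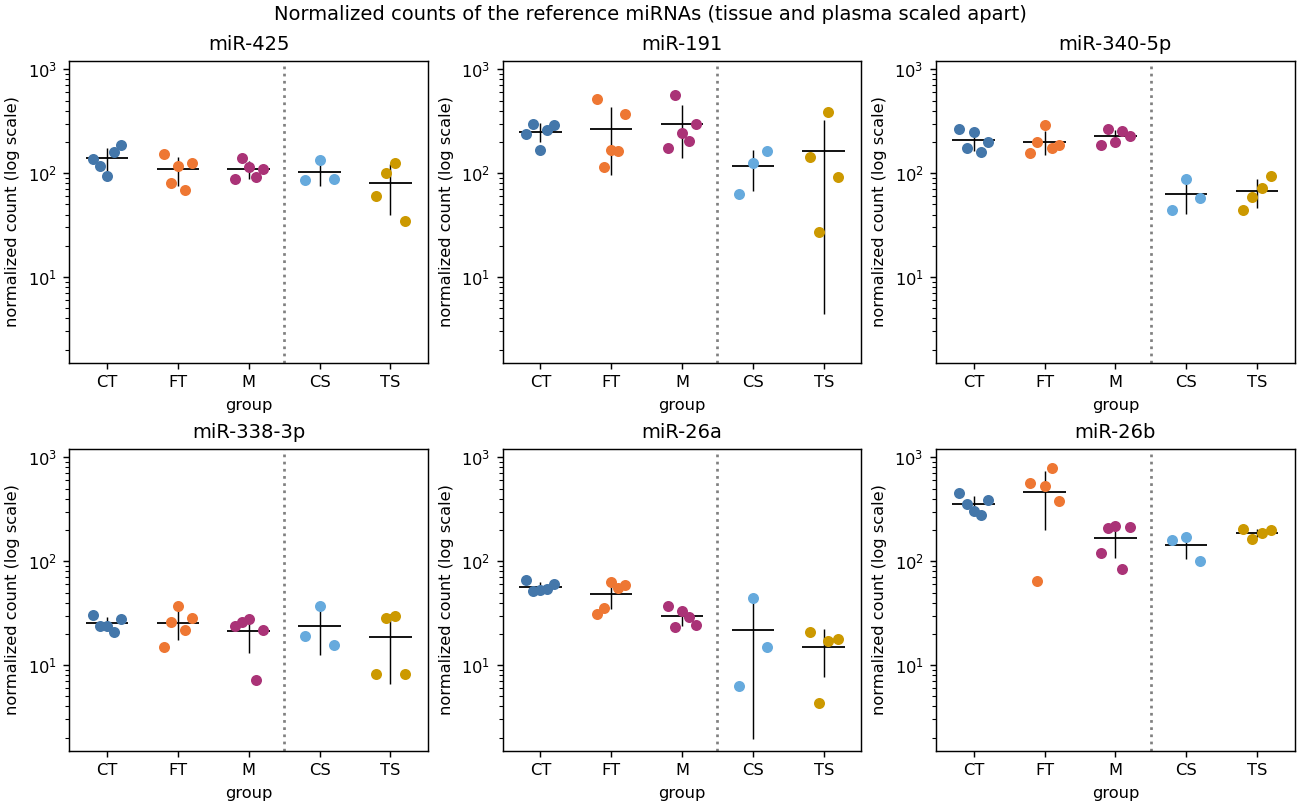
Normalized count of each reference miRNA (vertical axis, log scale) by group, 1 point per sample, with the group mean (horizontal bar) and ± 1 SD (vertical bar). Tissue (left of the dotted line) and plasma (right) were scaled apart and cannot be set against each other. The 5 M samples lie under the 5 CT samples for miR-26a and miR-26b, and FT2 lies apart for miR-26b.

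Ranked by the coefficient of variation (SD over mean of the normalized counts) over 15 tissue samples, miR-340-5p was 1st of 566 at 20.1%, miR-425 6th at 26.9%, miR-338-3p 7th at 28.1% and miR-26a 16th at 33.2%. miR-191 was 98th at 47.5% and miR-26b 243rd at 60.2%, against a median of 64.9% over all mouse miRNAs. In plasma the order changed: miR-26b was 1st at 20.8%, miR-340-5p 7th at 30.6% and miR-425 18th at 38.6%, followed by miR-338-3p (76th, 53.3%), miR-26a (211th, 73.3%) and miR-191 (295th, 82.6%), with a median of 81.0%. miR-340-5p and miR-425 were thus in the 56 lowest of 566 in both materials, miR-26b only in plasma, and miR-338-3p and miR-26a only in tissue. Counting error alone, taken from the counts as a Poisson spread, would give miR-338-3p 27.3% in tissue, so nearly all of its spread was of that size, while it would give 8.50% for miR-340-5p and 12.1% for miR-425. For miR-26b in plasma it would give 11.6%.

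These places depended on the scaling. With TMM factors 0 of the 6 were in the 56 lowest in tissue or in plasma, with miR-425 at rank 317 and miR-340-5p at rank 105 of 566 in tissue. Among the 141 miRNAs averaging 50 counts or more in tissue, miR-340-5p was 1st and miR-425 5th with the study's scaling, and they were 9th and 22nd with TMM (an alternative added after seeing the data). Among the 95 such miRNAs in plasma, miR-26b, miR-340-5p and miR-425 were 1st, 3rd and 7th with the study's scaling and 45th, 66th and 10th with TMM. When the negative controls were subtracted, miR-340-5p, miR-425 and miR-191 took places 1, 4 and 14 in tissue, and miR-338-3p fell to 206 and miR-26a to 82. Without the 5 M samples (added after seeing the data) miR-26a was 1st of 566 at 19.3%.

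Another 13 miRNAs, often used as references or named as serum references in the study's methods, gave a yardstick. Their coefficient of variation ran from 34.0% (miR-423-3p) to 102% in tissue, with 7 of 13 under the median of all miRNAs and 4 in the 56 lowest. In plasma it ran from 39.5%, again miR-423-3p, to 139%, with 11 of 13 under the median and 4 in the 56 lowest. In tissue 5 of the 6 reference miRNAs had a lower coefficient of variation than 8 of these 13, but the 6 had been chosen on this measure and the 13 had not.

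**Figure D3:**
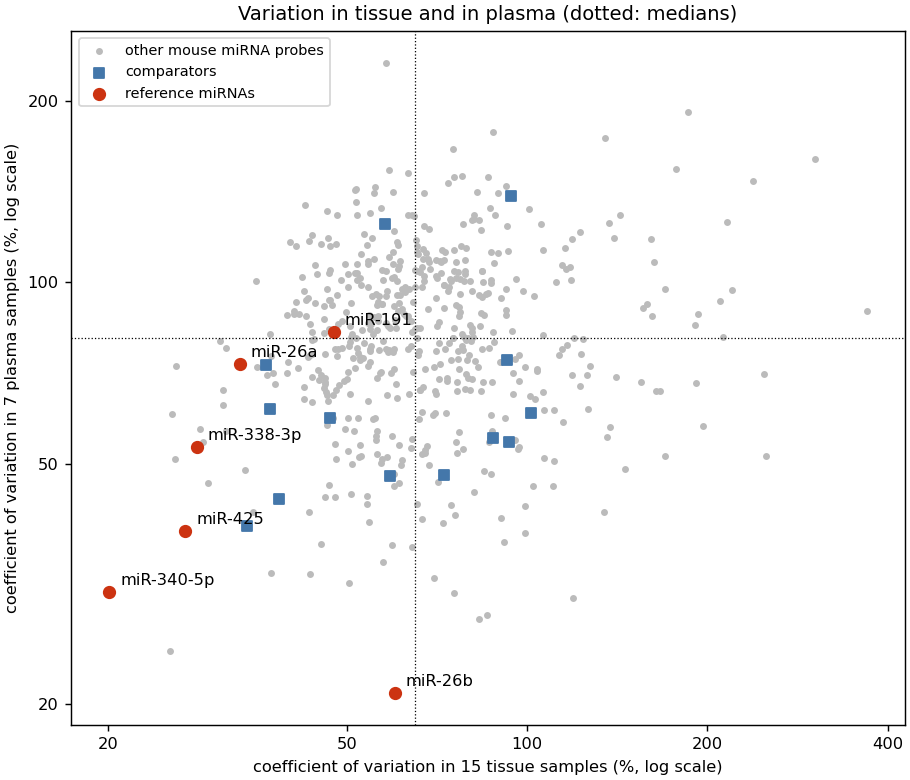
Coefficient of variation of each of 566 mouse miRNA probes over 15 tissue samples (horizontal axis, %, log scale) and 7 plasma samples (vertical axis, %, log scale), with medians dotted. miR-340-5p and miR-425 are low on both axes, miR-26b is the lowest in plasma at 20.8% but near the median in tissue, and miR-191 is at the median in plasma.

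The ratio of 2 miRNA counts within a sample does not depend on any scaling, so the 15 ratios among the 6 miRNAs were examined as log2 ratios. The tightest in tissue was miR-425 to miR-191, whose SD over 15 samples was 0.46 (log2), or 1.37-fold. It measured -0.80, -1.34, -0.83, -0.70 and -0.64 in CT, -1.75, -0.50, -0.53, -1.25 and -1.57 in FT, and -0.98, -2.02, -1.07, -1.16 and -1.46 in M. miR-191 therefore had the higher count in all 15 tissue samples. The next tightest were miR-425 to miR-340-5p, with an SD of 0.50, and miR-338-3p to miR-26a, with 0.55. The loosest were those of miR-26b to miR-340-5p (1.10) and to miR-191 (1.02).

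The median SD of the 15 ratios was 0.74 in tissue and 1.01 in plasma. All 15 tissue values and 13 of 15 plasma values were under the medians of 1.80 over 9870 pairs and 1.39 over 4465 pairs of miRNAs averaging 50 counts or more. Low variation had chosen the 6, so this is a description. Only 6 of the 15 pairs have both miRNAs at that mean count, with median SDs of 0.85 in tissue and 1.02 in plasma. A ratio to a low count takes its counting error along, and after subtraction of the negative controls the medians of the 15 were 1.13 and 1.72. In plasma miR-425 to miR-191 was 0.43, 0.08 and -0.90 in CS and -1.23, 1.90, -1.63 and -1.42 in TS, an SD of 1.27, with TS2 on the other side of 0 from the other 3 TS samples. miR-191 was not above background in CS2, CS3 and TS2, at 20, 17 and 25 counts, so those ratios are not firm. The tightest plasma ratios were miR-425 to miR-338-3p (0.37), which has miR-338-3p at background in every sample, and miR-340-5p to miR-26b (0.50).

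Averaged over its ratios to all other miRNAs averaging at least 50 counts, miR-340-5p had the 2nd lowest SD of 141 in tissue (1.40), miR-425 the 11th (1.44), miR-191 the 20th (1.54) and miR-26b the 66th (1.75). In plasma miR-425 was 7th of 95 (1.13), miR-26b 13th (1.16), miR-340-5p 18th (1.20) and miR-191 71st (1.65). miR-425 and miR-340-5p were in the lower part of this order in both materials, as they were by the coefficient of variation.

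**Figure D4:**
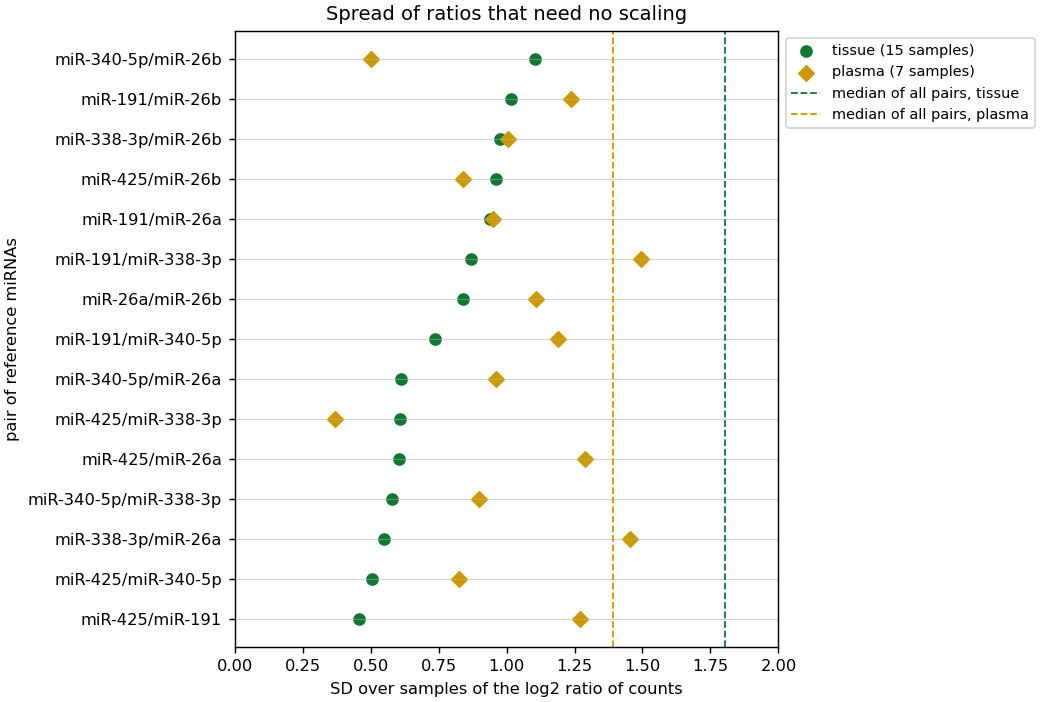
SD over samples of the log2 ratio of counts (horizontal axis) for the 15 pairs of reference miRNAs, in 15 tissue samples (circles) and 7 plasma samples (diamonds). Dashed lines are the medians over all pairs of miRNAs averaging 50 counts or more, at 1.80 in tissue and 1.39 in plasma. The pair miR-425/miR-191 is the tightest in tissue (0.46) and among the looser in plasma (1.27), whereas miR-340-5p/miR-26b is the loosest in tissue (1.10) and the next to tightest in plasma (0.50).

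The miRNAs whose ratio to each member had the lowest SD were sought among those averaging 50 counts or more. In tissue these were miR-103 (SD 0.43) and miR-151-5p (0.45) for miR-425, and miR-151-5p (0.34) and miR-425 (0.46) for miR-191. They were miR-28 (0.42) and miR-1960 (0.43) for miR-340-5p and miR-374 (0.50) and miR-125b-3p (0.52) for miR-338-3p. For miR-26a they were miR-30d (0.33) and miR-125b-3p (0.37), and for miR-26b miR-126-5p (0.50) and miR-30a (0.62). In tissue neither miR-26 was nearest to the other, as their own ratio had an SD of 0.84. miR-26a, with a mean of 44 counts in tissue, was itself not among the candidates. In plasma the nearest were miR-19b (0.28) for miR-425, miR-26b (0.50) for miR-340-5p, miR-126-3p (0.48) for miR-26b and let-7g for miR-191 (0.75) and miR-26a (0.85).

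Each group was compared with its control by edgeR's quasi-likelihood test over all 566 miRNAs with Benjamini-Hochberg adjustment. FT and M share the same 5 controls, and a miRNA that misses the threshold is not thereby shown to be equal in the groups. The 6 had been picked for low variation over these same samples, which favours small differences between groups. How many of them passed in each comparison is therefore a description. Against CT, 0 of the 6 passed in FT, where 0.177% of all miRNAs did. The log2 fold changes in FT were -0.33 (SE 0.459) for miR-425, 0.10 (0.528) for miR-191, -0.06 (0.476) for miR-340-5p, -0.00 (0.425) for miR-338-3p, -0.23 (0.426) for miR-26a and 0.40 (0.569) for miR-26b, with adjusted p between 0.787 and 0.999. None of the 6 had an unadjusted p under 0.05, and DESeq2 also called 0 of them.

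In M 0 of the 6 passed, where 14.5% of all miRNAs did, but the miR-26 pair stood low, and these were the 2 with an unadjusted p under 0.05. miR-26a was at 29.5 ± 5.90 normalized counts in M against 57.1 ± 6.48 in CT, and miR-26b at 168 ± 61.6 against 356 ± 69.1 (SD, n = 5 each). The miR-26a counts of M1, M3 and M4 (14, 12 and 12) and of CT5 (26) were not above background. Nor was the miR-26b count of M4 (35). The log2 fold changes were -0.97 (SE 0.345, adjusted p = 0.0672, edgeR) and -1.08 (SE 0.436, adjusted p = 0.115, edgeR). All 5 M samples lay under all 5 CT samples for both, which was so for 5.12% of all miRNAs, and the two-sided exact permutation test on log2 normalized counts gave p = 0.00794 for each, unadjusted and the smallest that 5 against 5 allows. miR-425 (-0.34, SE 0.375), miR-191 (0.25, SE 0.450), miR-340-5p (0.12, SE 0.395) and miR-338-3p (-0.23, SE 0.396) had smaller estimates, with adjusted p between 0.533 and 0.853 (edgeR). Of the 13 comparators 3 rose in M (miR-181a, miR-93 and miR-25) and 0 fell, and in FT 0 of 13 passed. The 13 had not been chosen for low variation, so their counts and those of the 6 are not on an equal footing.

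The call for miR-26a in M lay at the edge of the threshold. It was past it with the 6 miRNAs left out of the scaling set (adjusted p = 0.0465, edgeR), with TMM (0.0131), with median-of-ratios scaling (0.0200), with DESeq2 (0.0215), with the methods' t-test (0.0169), among miRNAs averaging at least 20 counts (0.0146) and without M1 (0.0497), and the log2 change in these ranged from -1.09 to -0.97. Over all 24 alternatives run for it the adjusted p ran from 0.0131 to 0.660, and with miR-26b as the library size its log2 change was 0.27, the only positive value. miR-26b passed with DESeq2 (adjusted p = 0.0374), among miRNAs averaging at least 20 counts (0.0495, edgeR) and among miRNAs averaging at least 50 counts (0.0277, edgeR), and over its 25 alternatives the adjusted p ran from 0.0277 to 0.956.

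The summed level of 4 smooth muscle and stroma miRNAs ran from 4495 to 12899 normalized counts in CT and from 594 to 3565 in M, so the groups did not overlap in this sum either. Of that list 2 were above background in all M samples, and 2 were at background in all of them. The 5 epithelial miRNAs ran from 9285 to 11038 in CT and from 242 to 42010 in M, where 1 of the 5 was above background in every sample. The part of either in the levels of miR-26a and miR-26b was not tested, and in whole tissue fewer cells of a type and less of a miRNA per cell cannot be told apart.

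Ratios that need no scaling were then compared between M and CT. Of the 15 member pairs 4 did not overlap, and of all pairs of miRNAs averaging 50 counts or more 37.3% did not. Only 6 of the 15 member pairs have both miRNAs at that mean count, so the shares are not over like sets. The count is no result about the members. The log2 ratio of miR-340-5p to miR-26b was -0.76, -1.02, -0.30, -0.79 and -0.97 in CT and 0.64, 0.36, -0.13, 1.58 and 0.12 in M. The groups did not overlap, and the mean differed by 1.28 (two-sided exact permutation p = 0.00794, 0.0213 after Benjamini-Hochberg adjustment over 9870 pairs). The ratio of miR-191 to miR-26b was -0.93, -0.25, -0.86, -0.10 and -0.43 in CT and 0.53, 1.45, 0.16, 1.28 and 0.51 in M, a difference of 1.30 with the same exact p and adjusted p. Every ratio that does not overlap at 5 against 5 has this exact p, the smallest possible. It therefore adds nothing to the lack of overlap. miR-340-5p to miR-26a (difference 1.10) and miR-338-3p to miR-26b (0.78) also did not overlap, but miR-26a was above background in 2 of the 5 M samples and miR-338-3p in 1 of 5 M and 1 of 5 CT samples.

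Each of these 4 ratios has a miR-26 as its denominator, and the other 4 ratios of a member to a miR-26 overlapped. The ratio of miR-26a to miR-26b differed between M and CT by 0.18 (95% interval from the pooled SD, -0.64 to 1.0), so a different change in the 2 was not detectable within that interval. The ratio of miR-425 to miR-26b differed by 0.83 (exact permutation p = 0.0238, adjusted over all pairs 0.0507) and was among the latter. None of the 6 ratios among miR-425, miR-191, miR-340-5p and miR-338-3p separated M from CT.

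In FT against CT 0 of 15 pairs did not overlap, against 1.49% of all pairs. FT2 was the exception to the pattern of the other FT samples in ratios to miR-26b: miR-340-5p to miR-26b was 1.64 in FT2 and between -2.18 and -0.87 in the other 4.

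In plasma 0 of the 6 passed in TS against CS, where 0.00% of all miRNAs did (42 had an unadjusted p under 0.05 with edgeR, and 58 with DESeq2, which also called 0). The log2 fold changes were -0.33 for miR-425, 0.47 for miR-191, 0.11 for miR-340-5p, -0.28 for miR-338-3p, -0.39 for miR-26a and 0.41 for miR-26b, each with an SE between 0.841 and 0.980 (adjusted p 0.761 to 0.938, edgeR). miR-26b was at 143 ± 37.9 (SD, n = 3) in CS and 188 ± 18 (SD, n = 4) in TS, and 3 of the 4 TS values were above every CS value. The exact permutation test gave p = 0.0857, and 4 against 3 samples cannot give less than 0.0286. Of the 15 ratios 0 did not overlap, against 9.34% of all pairs. The 4 miRNAs of red blood cells, which can leak into plasma, summed to between 17081 and 44989 in CS and between 7721 and 65025 in TS, with 4 and 3 of them above background in every sample, and their part in the levels of the reference miRNAs was not tested.

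Because ratios need no scaling, they also allowed plasma to be set against the tissue of the same mouse, in 3 control and 4 induced mice. Of the 15 ratios 0 moved to one side in all 7 mice, against 34.1% of the 3403 pairs of miRNAs averaging 50 counts or more in both materials. miR-425 to miR-340-5p was higher in plasma in 6 of 7 mice: the plasma minus tissue difference was 1.53, 1.98 and 0.62 in the control mice and 1.76, 2.10, 2.15 and -0.88 in the induced mice. Its mean was 1.32 ± 1.10 (SD, n = 7, two-sided exact sign-flip permutation p = 0.0469, unadjusted over 15 ratios), and the mouse of TS4 and FT5 went the other way. Neither miRNA was above background in CS2 (27 and 14 counts) or CS3 (18 and 12). miR-340-5p in TS1 and miR-425 in FT2 were not above it either, so the differences of these mice are not firm. miR-425 to miR-26a was higher in plasma in 6 of 7 mice (mean 1.53 ± 1.39, exact permutation p = 0.0312, unadjusted), with miR-26a at background in 6 of the 7 plasma samples. miR-340-5p to miR-338-3p was lower in plasma in 6 of 7 mice (mean -1.18 ± 1.04, exact permutation p = 0.0469, unadjusted), with miR-338-3p at background in all 7 plasma samples, and miR-340-5p to miR-26b in 6 of 7 (mean -0.74 ± 1.47, exact permutation p = 0.203, unadjusted).

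What the choice among the 6 does to a measured change was examined with the 4 miRNAs that the study followed by qPCR against miR-425. These were miR-21, an abundant miRNA raised in many tumors, miR-126-3p, known from endothelium, miR-146a, an immune-response miRNA, and miR-34b-3p, a miRNA of ciliated epithelium. Changing the reference shifts the log2 change of all 4 by the same amount. In M against CT the change of miR-21 was 2.53 over miR-425, 2.05 over miR-191, 2.07 over miR-340-5p, 2.57 over miR-338-3p, 3.17 over miR-26a and 3.35 over miR-26b. miR-34b-3p ran from -4.23 over miR-191 to -2.93 over miR-26b. From one reference to another a change in M could thus differ by 1.30 on the log2 scale, or 2.46-fold, against 0.39 (1.31-fold) in FT and 0.96 (1.95-fold) in plasma. The plasma figure has miR-338-3p at one end, and miR-338-3p was above background in 0 of the 7 plasma samples.

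miR-21, miR-146a and miR-34b-3p did not overlap between M and CT over any of the 6 references. The study had picked the 4 miRNAs for consistent changes in these same samples, so their separation and signs are given as a description. Of all pairs of miRNAs averaging 50 counts or more, 37.3% did not overlap in M and 1.49% in FT. miR-126-3p did not overlap over 4 of them, with a difference of 1.95 over miR-425, and overlapped over miR-191 (1.47) and miR-340-5p (1.49). With counts of 1 miRNA as the library size, the edgeR adjusted p of miR-126-3p in M was 0.0257 over miR-425, 0.121 over miR-191 and 0.0588 over miR-340-5p, against 0.0155 with the top 100. In FT miR-146a did not overlap over miR-425 (difference 1.56) and miR-26a (1.46) and overlapped over the other 4, while miR-21, miR-126-3p and miR-34b-3p overlapped over all 6. The signs of the 4 miRNAs were the same over all 6 references in all 3 comparisons.

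**Figure D5:**
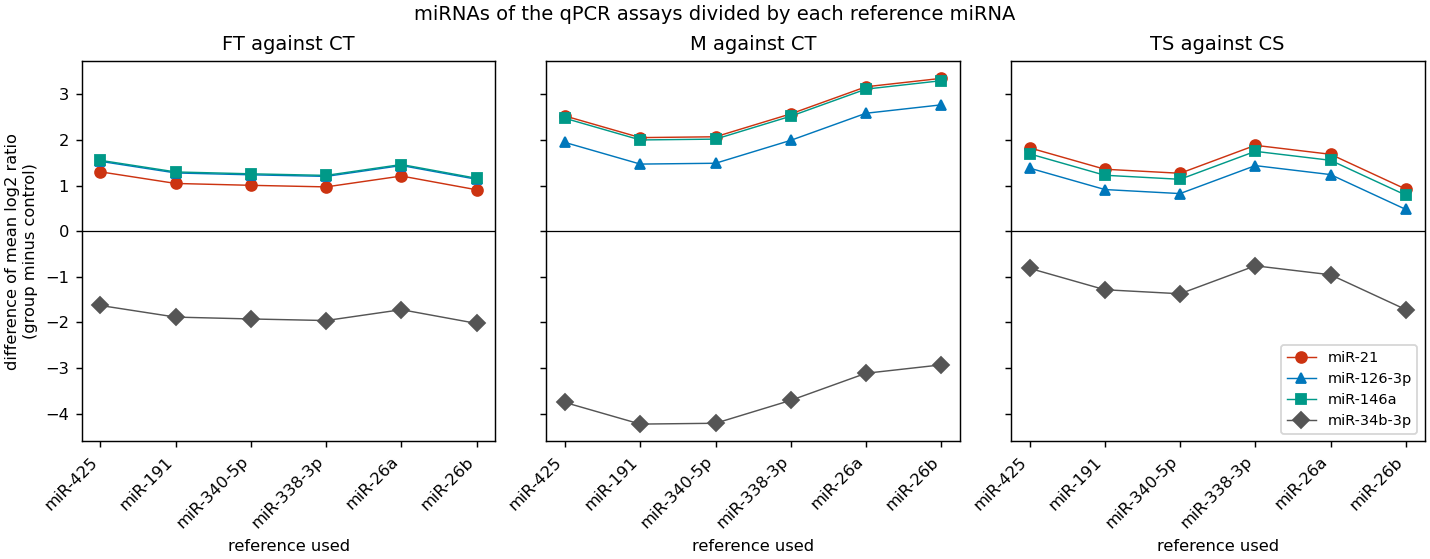
Difference between group and control in the mean log2 ratio of the 4 qPCR miRNAs to each reference miRNA (horizontal axis), for FT, M and TS; 1 point per ratio, without error bars, with lines only to guide the eye. The curves of 1 panel are parallel by construction, and in M they rise by 1.30 from miR-191 to miR-26b.

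The number of calls over all miRNAs also differed between references. In M against CT edgeR called 82 of 566 miRNAs with the top 100, and with 1 reference miRNA as the library size it called 90 of 565 (15.9%) over miR-425, 61 (10.8%) over miR-191, 63 (11.2%) over miR-340-5p and 77 (13.6%) over miR-338-3p. Over miR-26a it called 313 (55.4%) and over miR-26b 296 (52.4%), and the median log2 change of all miRNAs moved from 0.29 with the top 100 to 1.24 and 1.58. Of the calls over miR-26a 97.1% were higher in M, against 70.7% with the top 100. In FT the count was 1 with the top 100, 15 (2.65%) over miR-425, 16 (2.83%) over miR-191, 19 (3.36%) over miR-26b and 1 over each of the others, and in plasma it was 0 over every reference. As library sizes in M, miR-26a gave 12 to 36 counts and miR-338-3p 3 to 32, with 2 and 1 of the 5 samples above background. A single reference also changes the spread between samples, and its part in these counts was not tested.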

How the data were processed

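The authors deposited NanoString nCounter counts per probe, whole numbers without normalization, and 0 columns were left without a sample. Per the study's methods, nSolver scaled tissue to the geometric mean of the top 100 miRNAs and plasma to that of the top 30, without background subtraction. That scaling was repeated here on the deposited counts, with the sets chosen by mean count within each material, and normalized count means count over the sample's geometric mean times the average geometric mean. Any correction made before deposit is not given in the sources used here. The samples M5 and CS1, which the study excluded, were not used here. Further alleles of the mice are not reported here.

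The members, the comparators, the marker lists and the tests were chosen with earlier results of these data known. The miRNAs named were the 6 members, the 4 qPCR miRNAs, the comparators where one was singled out, the miRNAs nearest to a member by the SD of the log2 ratio and the opposite arms on the panel. Besides the muscle, epithelial and erythrocyte lists, 4 leukocyte miRNAs summed to 592 to 1163 normalized counts in CT and 964 to 6299 in M, and 3 liver miRNAs to 66.2 to 93.7 in CT and 64.2 to 587 in M.

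Group comparisons used edgeR 4.0.16 (glmQLFit, glmQLFTest) in R 4.3.3 with the geometric means as library sizes, all 566 mouse miRNA probes and a threshold of 0.05 on the adjusted p, and were tested on simulated data with 200 changed miRNAs. limma 3.58.1 and DESeq2 1.42.0 were alternatives, as were other scalings, low-count filters, subtraction of the negative controls, a pseudocount of 10 and leaving out each sample. Ratios were tested by exact permutation of samples (252 splits for 5 against 5, 35 for 4 against 3) or of signs over 7 mice (128 patterns), with Python 3.11.15, numpy 2.4.6, pandas 2.3.3, scipy 1.17.1 and matplotlib 3.10.9. Total miRNA counts were 70164 to 598321 in tissue and 18350 to 269005 in plasma. The samples of a group came from separate mice by the study's sample table, except that some mice gave both a fallopian tube and a metastasis.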

Additional observations from a re-analysis of the deposited data

Results flagged for a closer look

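Among 24 combinations of a miRNA and a group with 4 or 5 samples, 3 held 1 sample far from the others, where chance gives about 1 in 20. miR-26b was at 64.0 normalized counts in FT2, with the other FT samples at 384 to 795. miR-26a was at 4.35 in TS2 and between 16.9 and 20.7 in the other TS samples, and rests on 4 counts. miR-338-3p was at 7.25 in M4 and between 21.8 and 27.6 in the other M samples, and rests on 3 counts. All 3 values lay under the background level of their sample.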

How the results depend on the processing

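In M against CT, 0 of the 6 miRNAs passed the threshold. With TMM scaling, median-of-ratios scaling, the top set without the 6 members and the methods' t-test 1 passed, miR-26a. With a minimum mean count of 50 it was 1, miR-26b. With DESeq2 and a minimum of 20 it was 2, miR-26a and miR-26b, both lower in M. Scaling to miR-26a or to miR-26b (added after seeing the data) also gave 2, but these were miR-191 and miR-340-5p, higher in M. Leaving out 1 sample gave 0 to 1, with 1 without M1. In FT and in plasma it was 0 under every alternative. The 82 miRNAs called in M became 151 with TMM, 163 with median-of-ratios scaling, 124 with DESeq2, 32 with the methods' t-test and 50 to 101 without 1 sample, and the share called higher moved from 70.7% to 55.0% with TMM, 56.4% with median-of-ratios scaling and 88.9% over miR-425. The 32 of the t-test are after Benjamini-Hochberg adjustment, and 123 miRNAs had an unadjusted p under 0.05 by it. The study's own threshold was on the unadjusted p. In FT, where 1 was called, leaving out 1 sample gave 0 to 12 (12 without FT3, 10 without FT5).

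Of the 6 miRNAs, 4 in tissue and 3 in plasma lay in the 56 lowest of 566 coefficients of variation. It was 0 in both with TMM, median-of-ratios and positive control scaling and with counts as deposited, and 1 in both with quantile normalization. Among miRNAs of a mean count of at least 50 it was 2 in tissue, and with TMM among these (added after seeing the data) 1 in tissue and 0 in plasma. Leaving out 1 sample gave 4 to 4 in tissue and 3 to 4 in plasma. The cause was not tested. The median SD of the 15 ratios became 1.13 in tissue and 1.72 in plasma after subtraction of the negative controls and 0.79 in plasma with a pseudocount of 10, and without 1 sample ran from 0.63 to 0.76 (tissue) and 0.92 to 1.09 (plasma).

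Pairs not overlapping were 0 to 1 in FT without 1 sample (1 without FT4) and 4 to 6 in M. In plasma it was 1 with a pseudocount of 10 and 0 to 3 without 1 sample (3 without CS2, 2 without TS2). Ratios with 1 sign in all mice were 0, but 2 after subtraction of the negative controls, 9 in the 3 control mice alone, and 0 to 3 without 1 mouse (3 without that of TS4, 1 without that of TS3). The sign of the edgeR estimates that missed the threshold was not fixed: in M, miR-425 ran from -0.52 to 0.82 and was negative in 21 of 25 alternatives, and miR-26a from -1.09 to 0.27 and in 23 of 24.

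The replicate numbers did not pair the samples, which came from different mice. Same-numbered samples correlated from -0.34 to 0.30 in FT and CT, from -0.17 to 0.12 in M and CT and from 0.02 to 0.39 in plasma, and 1 sample in each comparison correlated best with its own number. With the replicate block 0 of the 6 passed in each comparison, and the calls over all miRNAs were 0 in FT, 69 in M and 96 in plasma, where it was 0 without the block. Depth limits miR-338-3p and miR-26a most, at 3 to 52 and 12 to 108 counts in tissue and at most 38 and 36 in plasma.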
